A study of Mus musculus with 4 samples.

Results

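The genes described here are the chaperones of the HSP70, HSP110, HSP90, HSP60 and small heat shock protein families, the TRiC chaperonin, the J-domain proteins of the DNAJA, DNAJB and DNAJC classes, and Hsf1, in RNA of mouse colon epithelium labelled Ythdf1 KO or WT. The rule reads gene names only, although the set was proposed with earlier results of these data known, and 75 of the 25796 genes in the deposited table matched. 5 chaperones of the endoplasmic reticulum, Hspa5, Hsp90b1, Dnajb9, Dnajb11 and Dnajc3, were left out by name. Each gene is represented by the listed transcript with the highest mean over the libraries. The genes were picked as cytosolic chaperones, but the names also take in proteins of mitochondria (Hspa9, Hspd1, Hspe1, Dnaja3, Dnajc11, Dnajc15, Dnajc19, Dnajc30) and of the endoplasmic reticulum (Hspa13, Dnajb12, Dnajb14, Dnajc1, Dnajc10), so the set is described by family rather than by compartment.

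The study compared colon epithelial cells labelled Ythdf1 KO (2 libraries, below also called the KO-labelled libraries) with cells labelled WT (2 libraries). Ythdf1 encodes a cytoplasmic protein that binds N6-methyladenosine (m6A), a base modification of mRNA. Epithelial cells were shaken off opened colons in a warm buffer with EDTA, a reducing agent and the ROCK inhibitor Y-27632, and all groups share this treatment. The libraries are the inputs of an m6A immunoprecipitation, that is, RNA before enrichment. Age, strain, sex and the way the knockout was made are not stated in the labels. Nor do they tie the libraries to separate animals, so the p-values below reflect the spread among these libraries alone, and that spread may be technical.

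Chaperones bind unfolded or partly folded proteins and release them in cycles of ATP binding and hydrolysis. HSP70 proteins take their substrates from J-domain proteins, which stimulate the ATPase, and release them with the help of HSP110 and other nucleotide exchange factors. HSP90 acts later, on nearly folded clients such as kinases and steroid receptors, and TRiC encloses actin, tubulin and other proteins in a chamber. When unfolded proteins accumulate, the transcription factor HSF1 binds heat shock elements, inverted repeats of GAA and TTC separated by a pair of bases, and switches on the inducible members.

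The sequences below are shown because they place such repeats in front of members whose values are given further on. The motifs searched were GAANNTTC and TTCNNGAA (element pairs, each its own reverse complement, so that 1 search covers both strands) and element triples, in which either pair is followed by NN and the next repeat in alternating order, so that a triple also holds 2 overlapping pairs. The window was the 250 bases before each RefSeq start on build GRCm38.p6, which is mm10. Capitals mark the matches, with the bases between the repeats.
Hspe1, chr1:55088053-55088082, plus strand: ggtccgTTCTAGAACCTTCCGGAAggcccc
Hspd1, chr1:55088053-55088082, minus strand: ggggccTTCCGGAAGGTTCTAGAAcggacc
Dnajb6, chr5:29735846-29735870, plus strand: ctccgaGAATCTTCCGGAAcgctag
Hspb1, chr5:135887796-135887835, plus strand: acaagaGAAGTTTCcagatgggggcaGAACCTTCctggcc
Hsph1, chr5:149636356-149636375, minus strand: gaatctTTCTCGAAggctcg
Hspa1a, chr17:34972247-34972266, minus strand: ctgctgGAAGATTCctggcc
Hspa1b, chr17:34959329-34959348, minus strand: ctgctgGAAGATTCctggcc

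The first pair of lines is the same stretch read on both strands. It lies between Hspd1 and Hspe1, which are transcribed away from each other, with 215 bases between the ends of the transcripts kept here. The stretches of Hspa1a and Hspa1b are identical, and over the 250 bases before their starts 247 were the same (98.8%). A promoter was listed for 59 members, and an element pair was found for 16 of them (27.1%), against 13.8% of the 18176 genes of the table with a listed promoter. An element triple was found for Dnajb6, Hspd1 and Hspe1 (5.08%), against 0.572% of the genes. A match describes the letters in the window, not binding. Members with no entry are Hsf1, Hspa8, Hspa9, Hspa13, Hsp90aa1, Hsp90ab1, Cct4, Hspb2, Dnajc2, Dnajc5, Dnajc5b, Dnajc11, Dnajc12, Dnajc18, Dnajc22 and Dnajc30.

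Values are normalised read counts, the reads of a transcript divided by a size factor per library by the authors. They are not corrected for transcript length, so values are compared between libraries and not between genes. The kept transcripts of all genes held 21686140 to 30951138 reads per library. Epithelial markers were high in every library, with 8 of 8 listed and a summed value of 288982 to 342179 in the KO-labelled libraries and 277505 to 304416 in WT. Markers of stroma and muscle summed to 669 to 1320.4 in the KO-labelled libraries and 1398 to 2346 in WT, those of leukocytes to 602 to 967 in the KO-labelled libraries and 1021 to 1452 in WT, and those of endothelium to 447 to 796 in the KO-labelled libraries and 819 to 941 in WT. The sums of these 3 lists were lower in both KO-labelled libraries than in both WT libraries. So was the sum of all genes with a mean under 100, at 426268 and 384636 in the KO-labelled libraries against 625688 and 573326 in WT. Of all genes tested at that level, 27.6% lay below both WT libraries and 9.35% above. At a mean of 100 to 1000 these shares were 20.5% and 13.7%. Of the 8 leukocyte markers, 2 lay below both WT libraries and 0 above, against 21.4% and 14.3% of all genes tested. Lyz2, listed at 0 in both KO-labelled libraries, is one of them and passed the filter through WT alone. Their part in the chaperone values was not tested. Ythdf1 reads were not reduced under the Ythdf1 KO label, with 1752 and 1737 in the KO-labelled libraries against 1088 and 775 in WT (log2 difference 0.92 ± 0.28 (SE), adjusted p = 0.759 in limma-trend). Ythdf1 was called higher under the KO label in the authors' deposited table (log2 fold change 0.91, q = 0.0145). The sources used here do not state where the gene was altered, so every direction below follows the labels.

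No chaperone gene passed the test across all genes, and the share of chaperones that separated the groups did not exceed that of all genes. Hspa8, the constitutive cytosolic HSP70, was the only member whose kept transcript had a q-value under 0.05 in the authors' deposited table, and it was higher in the libraries labelled Ythdf1 KO. Both HSP90 genes, Dnaja2 (a J-protein partner of HSP70), Cct6a and Dnajc25 also had both of those libraries above both WT libraries. For Cct6a the margin was very small, at 991.8 in the library labelled Ythdf1 KO 1 against 990.8 in WT 1. The ratio of group means was 3.45 for Dnajc25 and 1.23 to 1.52 for Hspa8 and the others. In all, 6 members (8.11%) lay above both WT libraries and 13 (17.6%) below, against 14.3% and 21.4% of all genes tested. In bulk RNA, fewer cells of a type and less RNA per cell cannot be told apart.

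In limma-trend on log2(value + 1), with adjustment over all 23116 genes tested, 0 of the 74 members tested and 0% of all genes had an adjusted p under 0.05. The smallest adjusted p of a member was 0.759. At an unadjusted p under 0.05 there were 2 members, Hspa8 and Dnajc25, both higher in the libraries labelled Ythdf1 KO, against 1.92% of all genes tested that were higher and 3.52% that were lower at that threshold. limma without its trend and robust options also called 0 members, although it called 632 genes in all. In the authors' deposited table, 1 of the 75 members had a q-value under 0.05, against 4.47% of all genes with 1 kept transcript each (1.24% were higher in the group labelled Ythdf1 KO, and 3.23% were lower there).

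Of the 74 members, 6 (8.11%) did not overlap and were higher in the group labelled Ythdf1 KO, against 14.3% of all genes tested, and 13 (17.6%) did not overlap and were lower, against 21.4%. Those above were Hspa8, Hsp90aa1, Hsp90ab1, Cct6a, Dnaja2 and Dnajc25. Those below were Cct4, Cct8l1, Tcp1, Hspe1, Hspb6, Hspb8, Dnaja4, Dnajb14, Dnajc4, Dnajc5g, Dnajc6, Dnajc15 and Dnajc30. Neither share exceeded the background. The counts differ by level: among the 30 members with a mean of at least 1000, 5 lay above (16.7%) and 2 below (6.67%), against 25% above and 11.2% below for all genes of that level. Among the 32 with a mean of 100 to 1000, 1 lay above (3.12%) and 8 below (25%), against 13.7% and 20.5% for all genes. Among the 12 with a lower mean, 0 lay above and 3 below (25%), against 9.35% and 27.6% for all genes. The median log2 difference over the members was 0.10, against -0.087 over all genes tested. Among members with a mean of at least 1000 it was 0.16, against 0.080 over all genes of that level. The median of the members was 0.0034 without WT 1.

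**Figure D1:**
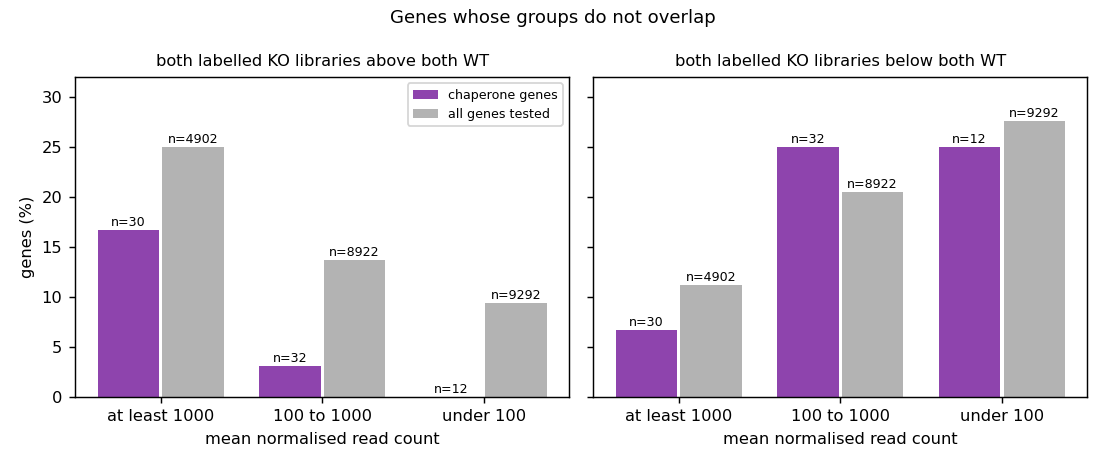
Share of genes, in percent, whose 2 libraries labelled Ythdf1 KO both lie above (left) or both lie below (right) the 2 WT libraries, in 3 bands of mean normalised read count, for the chaperone genes (purple) and all genes tested (grey), with the number of genes over each bar. Among genes with a mean of at least 1000, 16.7% of the chaperones lay above, against 25% of all genes.

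The test covered 74 of the 75 members, since 1 gene, Dnajc5b, had a value of at least 1 in only 1 library. Dnajc5g and Hspb8 passed that filter through the WT libraries alone, so their direction follows from the filter. Of the members, 30 had a mean of at least 1000 and 62 a mean of at least 100. All members together took 0.406% and 0.432% of the reads in the libraries labelled Ythdf1 KO 1 and 2, against 0.346% and 0.400% in WT 1 and 2. Hspa8 and Hsp90ab1 alone made up 32.3% and 34.6% of the members' summed values in the libraries labelled Ythdf1 KO, against 28.6% and 28.5% in WT. Without those genes the summed values of the other 73 members were 69070 and 72348 in the libraries labelled Ythdf1 KO, against 60380 and 71031 in WT. WT 2 fell inside the range of the libraries labelled Ythdf1 KO there, and WT 1 was the lowest.

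Among the HSP70 genes, Hspa8 separated the groups and the inducible forms overlapped, and the difference between the forms was not tested. Hspa8 (gene ID 15481, mm10 chromosome 9, 40801273 to 40805199), which folds new proteins and uncoats clathrin vesicles, had normalised read counts of 16766 and 19461 in libraries 1 and 2 labelled Ythdf1 KO, against 11523 and 12383 in WT 1 and 2. Both libraries labelled Ythdf1 KO lay above both WT libraries. The means were 18114 ± 1905 under the Ythdf1 KO label and 11953 ± 608 in WT (SD, n = 2 each), a ratio of 1.52, and the limma-trend log2 difference was 0.60 ± 0.13 (SE), adjusted p = 0.759. The authors' deposited table gave Hspa8 a log2 fold change of 0.60 with q = 0.000222. Over the alternatives run, its log2 difference lay between 0.49 and 0.70. Genes for small nucleolar RNAs (Snord14d and Snord14e) lie within the transcript on the same strand, with mean normalised read counts of 32.8 and 19.9, and processed copies of Hspa8 in the genome could take or lend reads.

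The stress-inducible pair Hspa1a and Hspa1b encodes nearly the same protein from neighbouring genes on chromosome 17, 10120 bases apart, so reads may be assigned to either. Hspa1a had 797 and 652 in libraries 1 and 2 labelled Ythdf1 KO, against 405 and 705 in WT 1 and 2, and Hspa1b had 2439 and 791 in libraries 1 and 2 labelled Ythdf1 KO, against 1725 and 1254 in WT 1 and 2. The groups overlapped for both. The library labelled Ythdf1 KO 1 was the highest of the 4 for either gene, while the library labelled Ythdf1 KO 2 was the lowest for Hspa1b. The log2 difference of Hspa1a was 0.43 ± 0.41 (SE), adjusted p = 0.837, and that of Hspa1b was -0.082 ± 0.53 (SE), adjusted p = 1. The ratio of means of Hspa1b was 1.08, so its means and its log2 values differ in sign. Its log2 difference was 0.73 without the library labelled Ythdf1 KO 2.

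Hspa9, the HSP70 of the mitochondrial matrix, had 3979.8 and 3816 in libraries 1 and 2 labelled Ythdf1 KO, against 3099 and 3872 in WT 1 and 2, with WT 2 inside the range of the other group (log2 difference 0.17 ± 0.19 (SE), adjusted p = 0.864). Hspa14, an HSP70 that works at the ribosome with the J-protein Dnajc2 in mammals, had 584 and 734 in the KO-labelled libraries against 296 and 717 in WT. Its partner Dnajc2 had 371 and 821 in the KO-labelled libraries against 268 and 458 in WT. In both, WT 1 was the lowest library and the groups overlapped. Hspa13, of the endoplasmic reticulum, had 583 and 524 in the KO-labelled libraries against 621 and 332 in WT, and the germ-cell form Hspa2 had 213 and 129 in the KO-labelled libraries against 149 and 137 in WT. Hspa1l, 546 bases from Hspa1a on the other strand, had 109.6 and 62.9 in the KO-labelled libraries against 50.7 and 127 in WT. Hspa12a and Hspa12b, distant relatives, spread widely within WT, at 544 and 684 in the KO-labelled libraries against 209 and 678 in WT and 103 and 60.4 in the KO-labelled libraries against 42.8 and 309 in WT. Over the 10 HSP70 genes, 8 had a log2 difference above 0, as did 10422 of all 23116 genes tested. Only Hspa8 (10%) lay above both WT libraries and 0% lay below, against 14.3% and 21.4% of all genes tested. The median log2 difference of the 10 genes was 0.25.

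**Figure D2:**
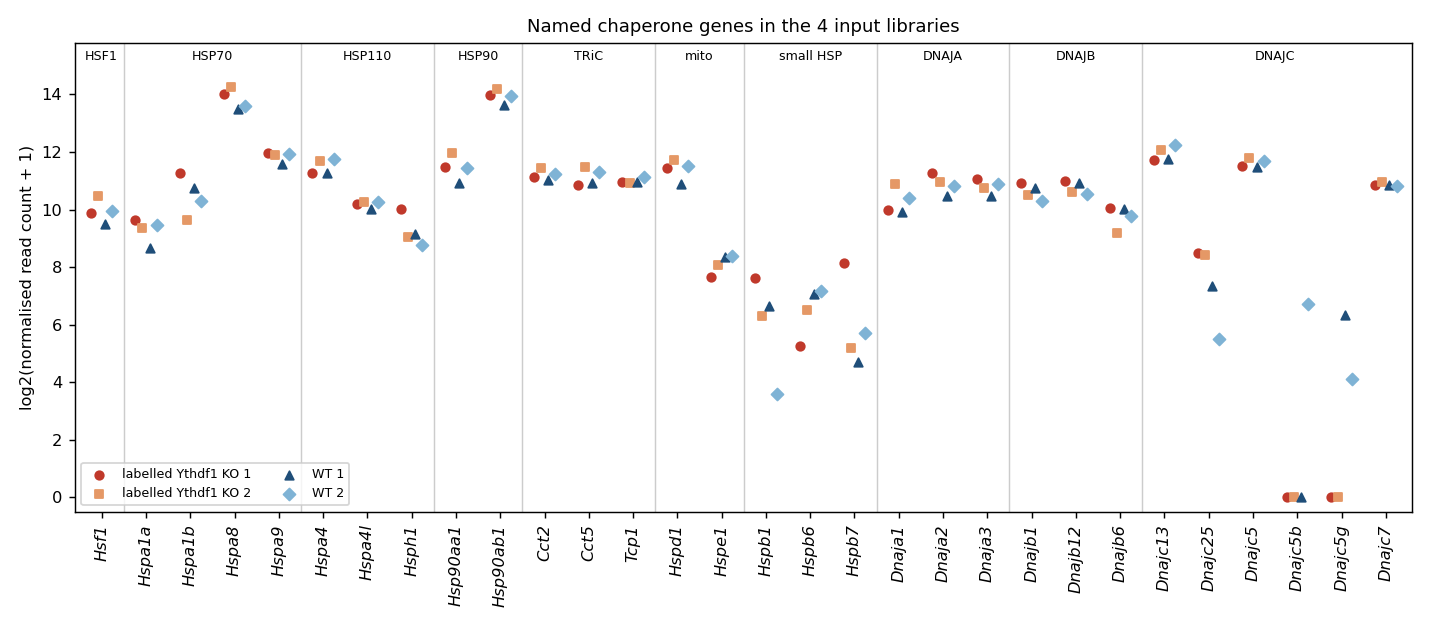
Normalised read counts of the 30 named chaperone genes, as log2(value + 1), in each of the 4 libraries (red circle and orange square for the libraries labelled Ythdf1 KO, dark triangle and light diamond for WT), grouped by family. For Hspa8, Hsp90aa1, Hsp90ab1, Dnaja2 and Dnajc25 both libraries labelled Ythdf1 KO lie above both WT libraries, and Dnajc5b and Dnajc5g are listed at 0 in both of them.

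The HSP110 genes, whose products exchange the nucleotide of HSP70, stayed within the spread of the libraries. Hspa4 had 2459.6 and 3271 in libraries 1 and 2 labelled Ythdf1 KO, against 2489 and 3444 in WT 1 and 2, and Hspa4l had 1179 and 1232 in the KO-labelled libraries against 1047 and 1224 in WT. Hsph1, the heat-inducible member, had 1044 and 524 in libraries 1 and 2 labelled Ythdf1 KO, against 561 and 434 in WT 1 and 2. The library labelled Ythdf1 KO 1 stood above the other 3, which lay close together. Its means were 784 ± 367 under the Ythdf1 KO label and 498 ± 89.9 in WT (SD, n = 2 each), with a log2 difference of 0.58 ± 0.45 (SE), adjusted p = 0.818. The log2 differences of Hspa4 and Hspa4l were -0.046 ± 0.25 (SE), adjusted p = 1 and 0.091 ± 0.26 (SE), adjusted p = 0.985.

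Both cytosolic HSP90 genes lay above WT without passing the test. At their level, a mean of at least 1000, 25% of all genes tested lay above both WT libraries. Hsp90ab1, the constitutive form, had 16239 and 18875 in libraries 1 and 2 labelled Ythdf1 KO, against 12656 and 15900.4 in WT 1 and 2. Its groups were separated by a narrow gap, between the library labelled Ythdf1 KO 1 and WT 2. The means were 17557 ± 1864 under the Ythdf1 KO label and 14278 ± 2294 in WT (SD, n = 2 each), a ratio of 1.23, and the log2 difference was 0.30 ± 0.16 (SE), adjusted p = 0.759. Hsp90aa1, the inducible form (mm10 chromosome 12, 110691036 to 110696395), had 2871 and 4039.9 in libraries 1 and 2 labelled Ythdf1 KO, against 1954 and 2764 in WT 1 and 2. WT 1 was again the lowest library and the library labelled Ythdf1 KO 2 the highest. Its means were 3455 ± 827 under the Ythdf1 KO label and 2359 ± 573 in WT (SD, n = 2 each), a ratio of 1.46, with a log2 difference of 0.55 ± 0.27 (SE), adjusted p = 0.759.

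The 6 genes best known for induction by HSF1 did not separate the groups together. Hsf1 itself had 935 and 1429 in libraries 1 and 2 labelled Ythdf1 KO, against 726 and 976 in WT 1 and 2, and its groups overlapped (log2 difference 0.46 ± 0.34 (SE), adjusted p = 0.816). Of the 6 genes, Hspa1a, Hspa1b, Hsph1, Hsp90aa1, Hspb1 and Dnajb1, 1 (16.7%) did not overlap between groups. That gene, Hsp90aa1, lay above both WT libraries, as did 14.3% of all genes tested and 25% of those with a mean of at least 1000. Dnajb1, the J-protein partner of inducible HSP70, had 1957 and 1437 in libraries 1 and 2 labelled Ythdf1 KO, against 1730.2 and 1270.1 in WT 1 and 2. Here the number 1 library of each group was the higher one (log2 difference 0.18 ± 0.28 (SE), adjusted p = 0.917). Hspa1b showed the same order within both groups, whereas for Hsp90aa1 the number 2 library was the higher of each group. The summed value of the 6 genes was 9305 and 7521 in the libraries labelled Ythdf1 KO, against 6475 and 6438 in WT. The separation of the sums rests on Hsp90aa1: the other 5 genes summed to 6435 and 3481 in the KO-labelled libraries against 4521 and 3674 in WT, so that the library labelled Ythdf1 KO 2 was the lowest. The median deviation of the 6 genes from their own mean over the libraries was 0.57 and -0.031 in the KO-labelled libraries against 0.014 and -0.25 in WT on the log2 scale, and these overlap. The median log2 difference of the 6 genes was 0.49, against -0.087 over all genes tested. By level, the median over all genes was 0.080 at a mean of at least 1000, -0.11 at 100 to 1000 and -0.68 under 100.

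Immediate early genes, which are switched on within minutes of stimulation or tissue handling, stood beside them. Of the 12 listed, 5 lay above both WT libraries and 0 below, with a median log2 difference of 0.19. All of them but Ier3 had a mean of at least 1000, and of all genes at that level 25% lay above and 11.2% below, with a median of 0.080. The summed value of the 12 immediate early genes was 149371 and 135529.8 in the libraries labelled Ythdf1 KO, against 136619.5 and 106835 in WT. WT 2 was the lowest library there, and the library labelled Ythdf1 KO 1 the highest. Jun had 31928 and 27402 in the KO-labelled libraries against 29942 and 24508 in WT, Egr1 had 24128 and 17727 in the KO-labelled libraries against 24191 and 18656 in WT, and the groups of both overlapped. Dusp1 lay above, with 5142 and 4889 in the KO-labelled libraries against 3795 and 3863 in WT. Fos had 30032 and 31337 in the KO-labelled libraries against 24401 and 20792 in WT, with q = 0.00851 in the authors' deposited table. Atf3 had 9555 and 8014 in the KO-labelled libraries against 6660.3 and 4448 in WT, with q = 0.0399 in the authors' deposited table. Their part in the chaperone values was not tested.

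**Figure D3:**
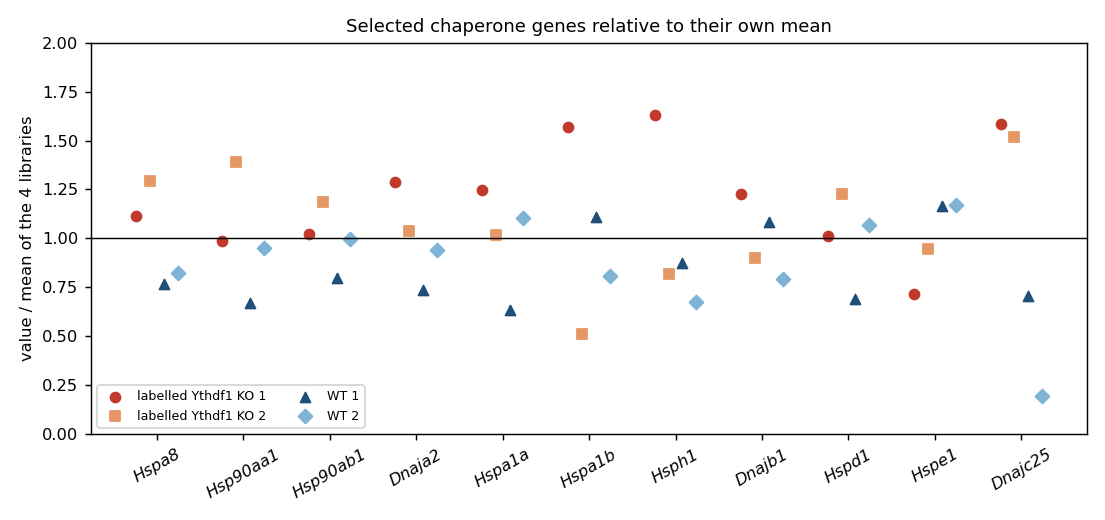
Normalised read count of 11 chaperone genes divided by the gene's own mean over the 4 libraries, with 1 point per library (red circle and orange square for the libraries labelled Ythdf1 KO, dark triangle and light diamond for WT). Hspa8, Hsp90aa1, Hsp90ab1, Dnaja2 and Dnajc25 separate the groups upward and Hspe1 downward, while the inducible Hspa1a, Hspa1b, Hsph1 and Dnajb1 and also Hspd1 mix them.

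TRiC is a double ring in which each ring holds 8 different subunits, encoded by Tcp1, Cct2, Cct3, Cct4, Cct5, Cct6a, Cct7 and Cct8. The summed value of the 8 genes was 13412 and 16262 in the libraries labelled Ythdf1 KO, against 12709 and 16562 in WT, so the number 2 library was the higher of each group. Their median log2 difference was 0.088, and single genes ranged from -0.40 (Cct7) to 0.48 (Cct6a). Cct6a was the subunit above both WT libraries, with 991.8 and 1622 in the KO-labelled libraries against 990.8 and 832 in WT. The margin between the library labelled Ythdf1 KO 1 and WT 1 was very small. Tcp1 and Cct4 lay below by small margins, with 1979 and 1929.8 in the KO-labelled libraries against 1985 and 2261 in WT and with 1973 and 1908 in the KO-labelled libraries against 1991 and 2063 in WT. Cct2 had 2245 and 2802 in the KO-labelled libraries against 2083 and 2398 in WT (log2 difference 0.17 ± 0.22 (SE), adjusted p = 0.887), Cct5 had 1859 and 2853 in the KO-labelled libraries against 1948 and 2516 in WT (0.057 ± 0.28 (SE), adjusted p = 1), and the log2 difference of Tcp1 was -0.12 ± 0.21 (SE), adjusted p = 0.935. Cct3 had 1716 and 2175 in the KO-labelled libraries against 1389 and 2279.7 in WT, and Cct8 had 1191 and 1566 in the KO-labelled libraries against 977 and 1551 in WT. For Cct7, WT 2 stood apart, at 1458 and 1407 in the KO-labelled libraries against 1346 and 2662 in WT. The testis form Cct6b and Cct8l1, a gene related to Cct8, had low read counts. Cct6b had 68.8 and 19.9 in the KO-labelled libraries against 124 and 1.01 in WT. Cct8l1 had 0 and 7.44 in the KO-labelled libraries against 49.6 and 112 in WT.

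Hspd1 and Hspe1 encode HSP60 and its lid HSP10, which form the folding chamber of the mitochondrial matrix, and they share the promoter stretch printed above. Hspd1 had 2771 and 3369.9 in libraries 1 and 2 labelled Ythdf1 KO, against 1895 and 2933 in WT 1 and 2, with overlapping groups and a log2 difference of 0.37 ± 0.27 (SE), adjusted p = 0.815. Hspe1 had 202 and 266 in libraries 1 and 2 labelled Ythdf1 KO, against 328 and 330.1 in WT 1 and 2. Both libraries labelled Ythdf1 KO lay below both WT libraries for Hspe1, with means of 234 ± 45.7 under the Ythdf1 KO label and 329 ± 1.52 in WT (SD, n = 2 each) and a log2 difference of -0.50 ± 0.50 (SE), adjusted p = 0.845. The ratio of Hspe1 to Hspd1 values was 0.0728 and 0.0790 in the libraries labelled Ythdf1 KO, against 0.173 and 0.113 in WT. The ratio was lower in both libraries labelled Ythdf1 KO and was not tested. A longer Hspd1 transcript overlaps Hspe1 by 70 bases on the other strand, and the sources used here do not say whether counting used strand. Processed copies of either gene elsewhere in the genome could share its reads.

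Other mitochondrial members gave no common direction. Dnaja3, the J-protein partner of Hspa9, had 2120.3 and 1735 in the KO-labelled libraries against 1429 and 1913 in WT (log2 difference 0.21 ± 0.26 (SE), adjusted p = 0.875). Dnajc19, of the import motor at the inner membrane, had 523 and 242 in the KO-labelled libraries against 484 and 288 in WT, and its relative Dnajc15 had 60.1 and 222 in the KO-labelled libraries against 361 and 269.6 in WT. Dnajc15 lay below both WT libraries, with its 2 libraries labelled Ythdf1 KO far apart. Dnajc11, a protein of cristae organisation, had 1173 and 1754 in the KO-labelled libraries against 1340.2 and 1452 in WT. Dnajc30 lay below by a small margin, with 702 and 725 in the KO-labelled libraries against 821 and 798 in WT.

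Small heat shock proteins hold unfolded proteins without using ATP, and their read counts, not corrected for transcript length, were low and scattered. Hspb1 (HSP27) had 197 and 76.9 in libraries 1 and 2 labelled Ythdf1 KO, against 100.3 and 11.1 in WT 1 and 2, with a log2 difference of 1.83 ± 1.51 (SE), adjusted p = 0.819. WT 2 was the lowest of its libraries and the groups overlapped. Hspb6, best known from muscle, had 36.8 and 89.3 in libraries 1 and 2 labelled Ythdf1 KO, against 134 and 141 in WT 1 and 2, below both WT libraries (log2 difference -1.25 ± 1.00 (SE), adjusted p = 0.819). For Hspb7, another muscle form, 1 library set the mean, with 281 and 35.6 in libraries 1 and 2 labelled Ythdf1 KO, against 24.8 and 51.5 in WT 1 and 2 (log2 difference 1.46 ± 1.52 (SE), adjusted p = 0.851). Hspb8, which works with the exchange factor Bag3, had 0.969 and 0 in the KO-labelled libraries against 59.7 and 2.02 in WT, so WT 1 held nearly all of its reads. Hspb2 had 0 and 32.3 in the KO-labelled libraries against 64.2 and 0 in WT. Hspb11, an intraflagellar transport protein, had 80.5 and 129.9 in the KO-labelled libraries against 81.2 and 60.6 in WT. Beside them, none of the 8 stroma and muscle markers was at 0 in any library. Col1a1 had 278 and 264 in the KO-labelled libraries against 238 and 711 in WT, Col3a1 had 411 and 6.62 in the KO-labelled libraries against 189 and 405 in WT, and both overlapped between groups. Myh11 had 265 and 65.3 in the KO-labelled libraries against 385 and 324 in WT. Pdgfra had 17.5 and 78.6 in the KO-labelled libraries against 276 and 349 in WT, with q = 0.0456 in the authors' deposited table. Of the 8, Myh11 and Pdgfra, that is 2, lay below both WT libraries and 0 above, against 21.4% and 14.3% of all genes tested. At a mean of 100 to 1000 these shares were 20.5% and 13.7%, and under 100 they were 27.6% and 9.35%. Among the 8 markers, Des had a log2 difference of 0.22. Their part in the small heat shock protein values was not tested.

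Class A J-proteins carry substrates to HSP70. Dnaja2 had 2495 and 2003 in libraries 1 and 2 labelled Ythdf1 KO, against 1424 and 1814 in WT 1 and 2. Both libraries labelled Ythdf1 KO lay above both WT libraries, averaging 2249 ± 347 under the Ythdf1 KO label and 1619 ± 276 in WT (SD, n = 2 each). Their ratio was 1.39, a log2 difference of 0.48 ± 0.25 (SE), adjusted p = 0.759. Dnaja1 had 1010.2 and 1897 in libraries 1 and 2 labelled Ythdf1 KO, against 969 and 1344 in WT 1 and 2, with 1 high library in the group labelled Ythdf1 KO (log2 difference 0.28 ± 0.38 (SE), adjusted p = 0.892). The kept transcript of Dnaja4 went the other way, with 215 and 274 in the KO-labelled libraries against 359.6 and 396 in WT. Another of its transcripts also lay below, with 214 and 274 in the KO-labelled libraries against 354 and 306 in WT. The groups of the remaining transcript overlapped, at 357 and 256 in the KO-labelled libraries against 281 and 266 in WT.

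Class B J-proteins overlapped between groups in 9 of 10 genes. Of the 10, 0% lay above both WT libraries and 10% below, against 14.3% and 21.4% of all genes tested. Dnajb6, which keeps polyglutamine proteins from aggregating, had 1065 and 586 in libraries 1 and 2 labelled Ythdf1 KO, against 1048 and 873 in WT 1 and 2 (log2 difference -0.28 ± 0.38 (SE), adjusted p = 0.893). Dnajb12, anchored in the membrane of the endoplasmic reticulum, had 2013 and 1570.0 in the KO-labelled libraries against 1931 and 1470.0 in WT (log2 difference 0.077 ± 0.26 (SE), adjusted p = 0.996). Its relative Dnajb14 was the gene below both WT libraries, with 620.5 and 706 in the KO-labelled libraries against 759 and 839 in WT. Dnajb2 had 783 and 494 in the KO-labelled libraries against 619.9 and 518 in WT, Dnajb4 had 334 and 75.3 in the KO-labelled libraries against 239 and 83.8 in WT, and Dnajb5 had 109 and 335 in the KO-labelled libraries against 91.3 and 298 in WT. Dnajb13, a protein of the sperm tail, had 384 and 295 in the KO-labelled libraries against 358 and 314 in WT. Dnajb3 had 795 and 218 in the KO-labelled libraries against 579 and 485 in WT, and Dnajb7 had 60.1 and 0 in the KO-labelled libraries against 60.9 and 14.1 in WT. Dnajb3 lies wholly within transcripts of the Ugt1a genes on the other strand, and Dnajb7 within Xpnpep3, so reads of those genes may be counted there.

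Class C J-proteins share little beyond the J domain, and of the 26 tested, 1 (3.85%) lay above both WT libraries and 5 (19.2%) below, against 14.3% and 21.4% of all genes tested. Among those below, Dnajc5g passed the filter through the WT libraries alone. The gene above was Dnajc25 (mm10 chromosome 4, 59003193 to 59023398), with 361 and 345 in libraries 1 and 2 labelled Ythdf1 KO, against 160.1 and 44.4 in WT 1 and 2. The 2 libraries labelled Ythdf1 KO were close together and the WT libraries were not. The means were 353 ± 11.1 under the Ythdf1 KO label and 102 ± 81.8 in WT (SD, n = 2 each), a ratio of 3.45, with a log2 difference of 2.05 ± 0.81 (SE), adjusted p = 0.759. The authors' deposited table gave the kept transcript of Dnajc25 q = 0.173, but 2 of its other transcripts had q-values under 0.05 in that table. XM_006538275.3 had 362 and 327 in the libraries labelled Ythdf1 KO against 94.7 and 43.4 in WT (q = 0.0183 in the authors' deposited table). XM_006538276.3 had 91.1 and 146 in the libraries labelled Ythdf1 KO against 2.25 and 0 in WT (q = 0.0126 in the authors' deposited table).

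Class C members of membrane traffic gave no common direction. Dnajc5, the cysteine string protein of secretory vesicles, had 2939.5 and 3501 in libraries 1 and 2 labelled Ythdf1 KO, against 2867 and 3328 in WT 1 and 2 (log2 difference 0.055 ± 0.20 (SE), adjusted p = 0.999). Dnajc13, an endosomal protein, had 3389 and 4308 in libraries 1 and 2 labelled Ythdf1 KO, against 3429.9 and 4848 in WT 1 and 2 (log2 difference -0.094 ± 0.24 (SE), adjusted p = 0.977). Dnajc6, the neuronal auxilin that uncoats clathrin vesicles with HSP70, had 129 and 5.79 in the KO-labelled libraries against 149.9 and 143 in WT, so its position below WT rests mainly on 1 library. The relatives of the cysteine string protein were listed at 0 in both libraries labelled Ythdf1 KO. Zeros were more frequent in those libraries over all genes, with 5240 and 5102 genes at 0 against 3633 and 3370 in WT. Dnajc5g had 0 and 0 in the KO-labelled libraries against 78.9 and 16.2 in WT (log2 difference -5.21 ± 2.57 (SE), adjusted p = 0.759). It passed the filter through the WT libraries alone, so its direction follows from the filter. With a floor of 3 reads in each library, the group labelled Ythdf1 KO was at least 17.6-fold lower, and at least 5.99-fold lower on WT 2 alone. Dnajc5b had 0 and 0 in the KO-labelled libraries against 0 and 105 in WT, so its reads came from 1 library and it was not tested.

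Cytosolic and ribosome-linked members of class C overlapped between groups. Dnajc7, which binds both HSP70 and HSP90, had 1851 and 2001 in libraries 1 and 2 labelled Ythdf1 KO, against 1865 and 1792 in WT 1 and 2 (log2 difference 0.074 ± 0.21 (SE), adjusted p = 0.985). Dnajc21, of ribosome assembly, had 397 and 567 in the KO-labelled libraries against 478 and 443 in WT, and Dnajc24, of the diphthamide pathway, had 240.4 and 168 in the KO-labelled libraries against 209 and 80.8 in WT. Dnajc9, a histone chaperone, had 185 and 262 in the KO-labelled libraries against 204 and 136 in WT. Dnajc8 and Dnajc17, which act with the spliceosome, had 327 and 799 in the KO-labelled libraries against 673 and 832 in WT and 38.8 and 59.6 in the KO-labelled libraries against 307 and 56.5 in WT. For Dnajc17, WT 1 stood far above the other 3 libraries. Dnajc12, which binds aromatic amino acid hydroxylases, had 139 and 29.0 in the KO-labelled libraries against 29.3 and 107 in WT.

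Of the class C members in the endoplasmic reticulum, Dnajc10, a disulfide reductase, had 1439 and 1333 in the KO-labelled libraries against 1094 and 1338 in WT, and Dnajc1 had 904 and 604 in the KO-labelled libraries against 645 and 755 in WT. The other class C genes are given by value only. Dnajc14 had 1592 and 1911 in the KO-labelled libraries against 1347 and 1720.4 in WT, and Dnajc16 had 902 and 1377 in the KO-labelled libraries against 1023 and 935 in WT. Dnajc18 had 678 and 246 in the KO-labelled libraries against 291 and 140.3 in WT, Dnajc22 had 1146 and 616 in the KO-labelled libraries against 992 and 1252 in WT, and Dnajc27 had 132 and 16.5 in the KO-labelled libraries against 91.3 and 123 in WT. Dnajc28 had 239 and 162 in the KO-labelled libraries against 71.0 and 201 in WT. Dnajc4 lay below both WT libraries, with 365 and 410.3 in the KO-labelled libraries against 560.2 and 559 in WT. The groups of the 6 genes before it overlapped.

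**Figure D4:**
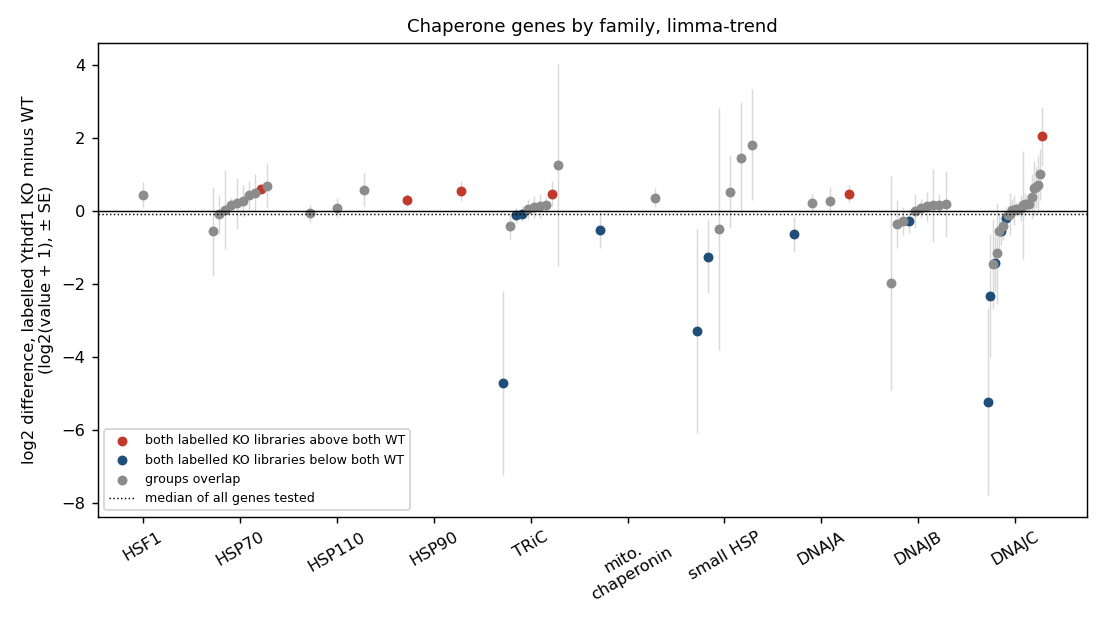
Log2 difference (labelled Ythdf1 KO minus WT, on log2(value + 1), ± SE from limma-trend) of the 74 chaperone genes tested, by family, in rising order within each family. Red points have both libraries labelled Ythdf1 KO above both WT libraries (6 genes), blue points below (13 genes), grey points overlap, and the dotted line is the median of all genes tested.

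Libraries of a group also differed from each other. Over the 62 members with a mean of at least 100, the higher library was a median of 1.35 times the lower within the group labelled Ythdf1 KO, and 1.28 times within WT, each as a ratio of value + 1. On that scale the 2 libraries of a group differed by over 2 times for 11 of these members in the group labelled Ythdf1 KO and for 10 in WT. WT 1 held the lowest value of the 4 for 26 of the 74 members and the library labelled Ythdf1 KO 1 the highest for 25. Transcripts of a gene share reads, so their signs are not independent. The transcript kept could still decide a q-value. For Dnajc25 it had q = 0.173 in the authors' deposited table, and the other transcripts had 0.0183 and 0.0126. Of the 37 members with more than 1 transcript of a mean of at least 100, 6 had transcripts on both sides of 0: Dnaja4, Dnajb5, Dnajb6, Dnajc1, Dnajc19 and Hspa4l. Transcripts of other genes overlapped 18 members on the other strand and 1 on the same strand.

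Partner genes of the pathway were counted from lists, and each count stands against 14.3% of all genes tested that lay above both WT libraries and 21.4% that lay below. The lists hold genes of different levels, and these shares depend on level. They were 25% and 11.2% at a mean of at least 1000, and 13.7% and 20.5% at a mean of 100 to 1000. Of the 22 co-chaperones of HSP70 and HSP90, 4 lay above both WT libraries and 1 below, with 0 past an adjusted p of 0.05 in limma-trend (smallest adjusted p = 0.759) and a median log2 difference of -0.019. Fkbp5 and Fkbp4, immunophilins of the HSP90 cycle, had 4115 and 6346 in the KO-labelled libraries against 5769 and 4171 in WT and 3964 and 6033 in the KO-labelled libraries against 2746 and 4909 in WT, and the phosphatase Ppp5c had 2700.0 and 3034 in the KO-labelled libraries against 2219 and 2443 in WT. Of the 9 nucleotide exchange factors, 2 lay above and 2 below, with a median of 0.059. Bag6, a chaperone of membrane proteins, had 7624 and 5746 in the KO-labelled libraries against 7837 and 8561 in WT, Bag1 had 3375 and 4425 in the KO-labelled libraries against 4084 and 3321 in WT, and the stress-inducible Bag3 had 3383 and 3391 in the KO-labelled libraries against 2988 and 2946 in WT. Prefoldin and TRiC cofactors numbered 13, with 3 above and 3 below and a median of -0.16. Among them Pfdn4, a prefoldin subunit, had 186 and 100.1 in the KO-labelled libraries against 6.76 and 0 in WT, with q = 0.0348 in the authors' deposited table. Pfdn5 had 827 and 936 in the KO-labelled libraries against 1066 and 1446 in WT, Tbcd had 1309.8 and 1729 in the KO-labelled libraries against 1721 and 1189 in WT, and Txndc9 had 1108 and 1129 in the KO-labelled libraries against 1079 and 849 in WT. Of the 6 other heat shock factors and regulators, 3 lay above and 1 below. Of these, Hsf3 was listed at 0 in both WT libraries and passed the filter through the KO-labelled libraries alone, so its direction follows from the filter. All had low read counts except Hsbp1, a binding protein of HSF1, with 1304 and 1141 in the KO-labelled libraries against 774 and 1053 in WT. Hsf2 had 225 and 60.4 in the KO-labelled libraries against 321 and 25.2 in WT, and Hsf4 had 63.0 and 141 in the KO-labelled libraries against 204 and 142 in WT.

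The endoplasmic reticulum chaperones that the names left out can be set beside their cytosolic relatives. Hspa5 (BiP) had 6760.3 and 6880.4 in the KO-labelled libraries against 4498 and 5714 in WT, and Hsp90b1 (GRP94) had 5868 and 7919 in the KO-labelled libraries against 4594 and 5034 in WT. Each lay above both WT libraries, as Hspa8 and the cytosolic HSP90 genes did. Of all genes with a mean of at least 1000, 25% lay above both WT libraries and 11.2% below. The log2 differences of Hspa5 and Hsp90b1 were 0.43 ± 0.17 (SE), adjusted p = 0.759 and 0.50 ± 0.19 (SE), adjusted p = 0.759. Dnajb11 also lay above, with 2027 and 1902 in the KO-labelled libraries against 1585 and 1699 in WT, Dnajc3 overlapped, with 2538 and 1498 in the KO-labelled libraries against 1738 and 1629 in WT, and Dnajb9 lay below, with 459 and 481 in the KO-labelled libraries against 862 and 939.9 in WT. Dnajb9 had q = 0.023 in the authors' deposited table. At its level, a mean of 100 to 1000, 20.5% of all genes tested lay below both WT libraries. Whether the cytosolic and endoplasmic reticulum genes differ was not tested.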

How the data were processed

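Total RNA of isolated colon epithelium was sequenced as input of an m6A immunoprecipitation, in 4 libraries (labelled Ythdf1 KO and WT, n = 2 each). The submitters' processing notes name Bowtie2 2.2.5, CASAVA 1.8, deepTools 3.3.0, HOMER 4.10, MACS2 2.1.0, SAMtools 1.3.1 and build mm10. The sources used here give no roles for them, no counting program, no use of strand and no test. The deposited table lists 87526 RefSeq transcripts, each with an expression signal per library that is a read count divided by a size factor: 100% of the values above 0 were whole multiples, within 0.001, of the lowest one in the library. 1 read was worth 0.969 and 0.827 in the group labelled Ythdf1 KO and 1.13 and 1.01 in WT. No transcript had a mean under 11.6, as read from the values. Per the file headers, the authors also deposited, for each transcript, its log2 fold change with a p-value and q-value.

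For each gene the transcript with the highest mean was kept, because isoforms count shared reads repeatedly. Genes reaching 1 in 2 or more libraries were fitted with limma-trend 3.58.1 (robust, R 4.3.3) on log2(value + 1). Genotype label was the only term, with Benjamini-Hochberg adjustment over all genes. Adding 1 shrinks changes of low genes, but averaged logs can also differ from the ratio of means in size or sign. For Cct6b the log2 difference was 1.27 and the ratio of means 0.71. The fit was tested on simulated data. Named genes were Hsf1, the HSP90, HSP110 and HSP60/HSP10 genes, 6 heat-inducible genes, the 3 members with the highest mean of each other family, members with an unadjusted p or deposited q under 0.05, and members at 0 in a whole group; other members are given by value. List genes were named at the 3 highest means or for such a p or q; Dnajb11, Des, Lyz2, Hsf3, Ier3 and the sum without Hsp90aa1 were added after values were seen. The members and lists were chosen with earlier results of these data known. Floors of 3 reads cover counting error only. Promoter sequences are RefSeq's (GRCm38.p6), matched by symbol for 59 members.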

Additional observations from a re-analysis of the deposited data

How the results depend on the processing

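0 chaperone genes passed in any of the 11 alternatives run, although limma without both its trend and robust options called 632 genes in all, and 36 genes were called without the library labelled Ythdf1 KO 1, 6 without WT 2 and 2 without WT 1. The planned edgeR and DESeq2 fits were not run on these normalised values. The count above both WT libraries was 10 with quantile normalisation, which moved the median of all genes from -0.087 to 0.00066 on the log2 scale, and 17 to 29 with 1 library left out; the count below was 16 to 26. With 1 library left out these counts rise by construction, since fewer values must be separated. The members' median log2 difference was 0.0034 to 0.16 over these fits, lowest without WT 1; the cause was not tested. Same-numbered libraries did not deviate together (correlation -0.008 over 23116 genes). With 2 libraries a group, this cannot show whether same-numbered libraries were handled together. With the replicate number as a block 0 members were called and the member median was 0.10. That fit gave an unadjusted p under 0.05 for 1760 genes, 4 of them members, against 1257 and 2 in the main limma-trend fit. Of 314 log2 differences of named genes under alternatives, 22 had the other sign. No gene was called in the main fit, so no call could be lost. Of the 29 named genes tested, 17 kept their sign in all alternatives run. Hspa8, Dnajc25, Dnaja2 and both HSP90 genes were among them. The sign turned with quantile normalisation for Cct5 -0.021, Dnajc5 -0.032, Dnajc7 -0.016, with transcripts summed for Dnajb6 0.00060, and with 1 library left out (lowest to highest) for Cct5 -0.25 to 0.37, Dnaja1 -0.18 to 0.73, Dnajb1 -0.045 to 0.40, Dnajb12 -0.12 to 0.27, Dnajb6 -0.71 to 0.15, Dnajc13 -0.34 to 0.16, Dnajc5 -0.072 to 0.18, Hspa1b -0.89 to 0.73, Hspa4 -0.28 to 0.19, Hspa4l -0.022 to 0.20, Hspb7 -0.0090 to 2.94.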
